A study of Mus musculus with 4 samples.

Results

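The genes examined here encode the PAR bZIP transcription factors Dbp, Tef and Hlf, the bZIP repressor Nfil3 and the basic helix-loop-helix repressors Bhlhe40 and Bhlhe41, which are known as DEC1 and DEC2. They were taken by name, as all probe sets annotated to 1 of these 6 genes alone, out of 12393 genes with a name on the array. These are 10 probe sets, of which 9, for 5 genes, averaged 50 or more in signal across the arrays. Only the probe set of Bhlhe41 did not. The dimmest member probe set above this limit had a mean of 77.1 and that of Bhlhe41 a mean of 25.2.

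RNA of the dentate gyrus of C57Bl/6 mice was measured in 4 pools, each on 1 Affymetrix mouse genome 430A 2.0 array. The ECS pool came from mice given bilateral electroconvulsive stimulation under isoflurane in 11 sessions, an animal model of electroconvulsive therapy, and the sham pool from mice handled alike without the shock. The fluoxetine pool came from mice that took this serotonin reuptake inhibitor at 22 mg/kg per day in saccharin-containing drinking water for 4 weeks, and the vehicle pool from mice given water. Per the study's methods the mice were males of the C57BL/6J or C57BL/6N substrain bought at 8 weeks of age. They were habituated for over 1 week before treatment, so they were older at dissection. The fluoxetine-treated animals (n = 3) had been selected for a small frequency facilitation at the mossy fiber synapse. The labels of the ECS and sham arrays state 6 h, whereas the methods place the dissection a day after the last session. The hour of the day at which tissue was taken is not given in the sources used here. RNA of a group was put together before labelling, so there is 1 array per group, no spread between animals can be given, and no difference was tested.

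PAR bZIP factors are output genes of the circadian clock. They bind a DNA element called the D-box and activate genes of metabolism and detoxification, in the brain among them that of pyridoxal kinase, and mice that lack all of them are prone to fatal seizures. Nfil3, also called E4BP4, binds the same element and represses it. Bhlhe40 and Bhlhe41 bind the E-box, the element through which the clock proteins CLOCK and BMAL1 drive their targets, and repress it. Dbp itself is a classic E-box target, and Bhlhe40 and Nfil3 are also inducible by neuronal and hormonal stimuli.

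The values are MAS5 signals, in which Affymetrix software sums up the probes of a probe set on a linear scale. The arrays had no common scale. Past the limit of 50, median signals were 236 for sham, 219 for ECS, 335 for vehicle and 365 for fluoxetine. The median log2 ratio of the 13422 probe sets past that limit was therefore subtracted from each ratio. It was -0.096 for ECS over sham and 0.12 for fluoxetine over vehicle. All log2 ratios given here are centred in this way unless another processing is named. A gene was called higher or lower when its brightest probe set differed at least 1.5-fold, which is 0.58 on the log2 scale. As the only measure of the spread between untreated pools, the control spread of a probe set is the scaled median absolute deviation of sham over vehicle, in log2, among its 500 neighbours in signal. The ratio of the 3′ to the 5′ probe set of Gapdh, a measure of RNA integrity, was 0.736 to 0.769 on the 4 arrays. That of beta-actin was 1.47 to 1.59.

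Hlf was much lower in both treated pools, Nfil3 was much higher with ECS alone, and Tef and Bhlhe40 were moderately lower with ECS. Dbp stayed within 1.5-fold of its control in both comparisons. With ECS, 2 of the 3 PAR bZIP genes were called lower and none higher, and of the 2 measured repressors 1 was called higher and 1 lower. Among all 7935 genes measured, 5.15% were called higher and 4.37% lower with ECS. With fluoxetine, 1 of the 5 measured members was called lower and none higher, against 5.05% of all genes called lower and 5.85% higher. The median log2 ratio of the 5 members was -0.60 with ECS and -0.41 with fluoxetine, and that of all genes was 0.00052 and -0.0028. The balance of calls over all genes depended on scaling. With ECS 409 genes were higher and 347 lower after centring, but 305 and 513 in the signals as deposited, and with fluoxetine 464 and 401 against 674 and 259. The counts of members were equal on both scales.

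**Figure D1:**
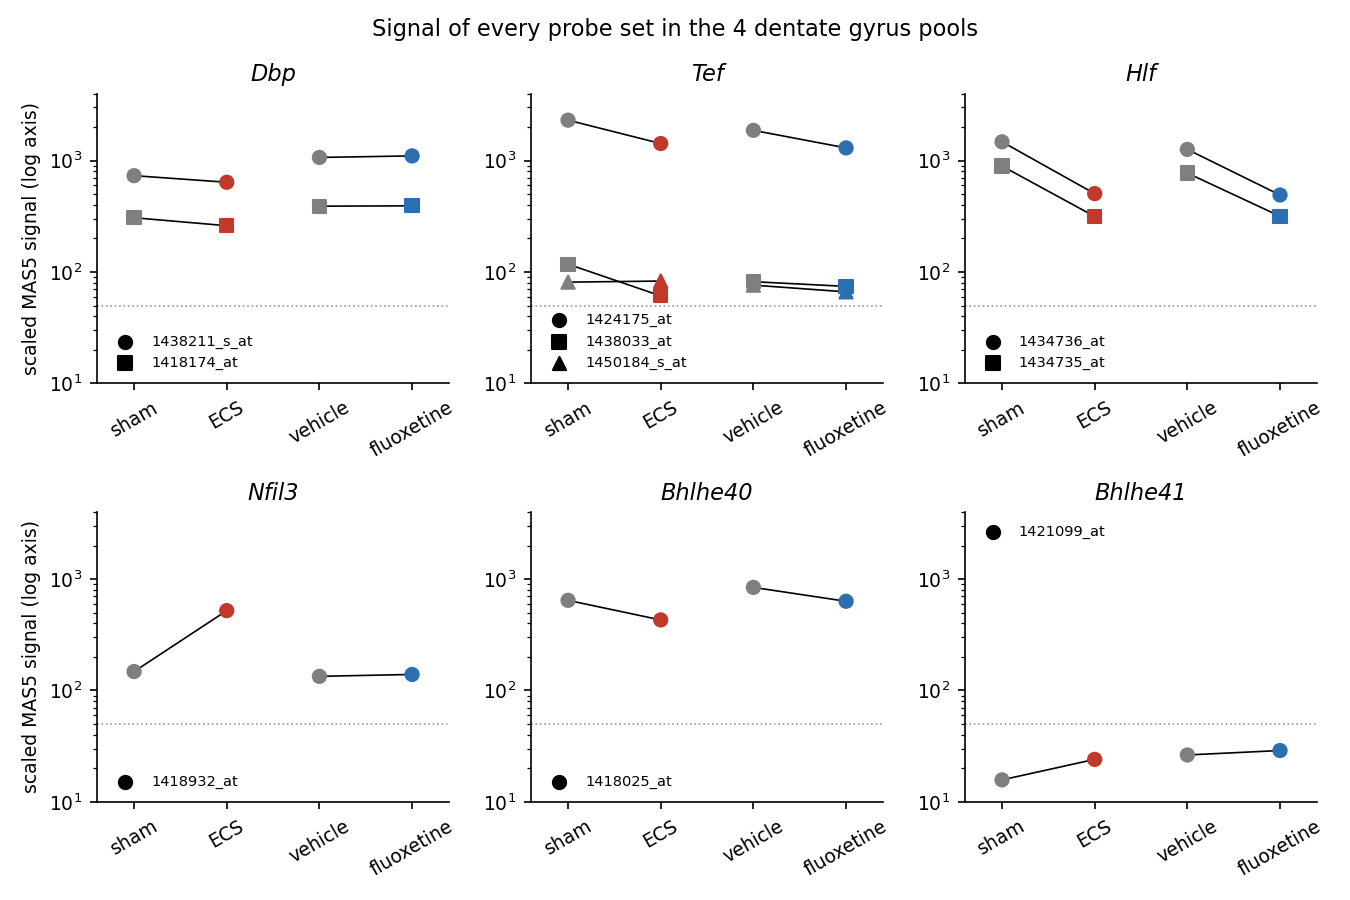
MAS5 signals of every member probe set in the sham, ECS, vehicle and fluoxetine pools, multiplied by 1 factor per array so that the array medians are equal, on a log axis; each point is 1 array, lines join a treated pool to its control, symbols stand for probe sets and the dotted line is a signal of 50. Both probe sets of Hlf drop in both treated pools, that of Nfil3 is high in the ECS pool alone, and that of Bhlhe41 lies below the dotted line throughout.

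Hlf, hepatic leukemia factor, was the member with the largest decrease in both comparisons. The signal of its brighter probe set was 1234 in the sham pool, 392.3 in the ECS pool, 1495 in the vehicle pool and 635 in the fluoxetine pool. Both control pools lay far above both treated pools. The centred log2 ratio was -1.56 with ECS, a signal 2.94-fold lower, and -1.36 with fluoxetine, 2.56-fold lower, where the control spread was 0.14. The untreated pools differed by 0.23 (sham over vehicle). The other probe set had signals of 748, 245, 917 and 409 in the same order of pools, and log2 ratios of -1.52 and -1.28. The probe sets of Hlf thus differed by 0.041 with ECS and 0.072 with fluoxetine, less than the control spread. In the order of the log2 ratios over 7935 genes, Hlf held place 14 from the lowest with ECS and place 36 from the lowest with fluoxetine. In pooled tissue, less Hlf RNA per cell and fewer cells that express it cannot be told apart.

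The genes with the profile most like that of Hlf were Csgalnact1, an enzyme of chondroitin sulfate synthesis, Csf1, a growth factor of macrophages and microglia, and Snrnp40, a component of the spliceosome. Likeness was measured as the Euclidean distance between log2 signals of the 4 arrays, centred on the array median and on the gene's own mean. The distance from Hlf was 0.083 for Csgalnact1, 0.17 for Csf1 and 0.18 for Snrnp40. For Csgalnact1 the ECS ratio was -1.51 and the fluoxetine ratio -1.35. Among the other members Tef came nearest to Hlf, at a distance of 0.85 and place 162 in nearness.

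Markers of mature granule cells, the principal neurons of the dentate gyrus, were lower in the same pools as Hlf. Over all genes, 4.37% were called lower with ECS and 5.05% with fluoxetine. Of the 7 measured markers on a list of 8, 4 were called lower with ECS, 5 with fluoxetine and none higher in either. Their summed signal, with arrays scaled to a common median, was 9185 in the sham pool, 4617 in the ECS pool, 9488 in the vehicle pool and 3101 in the fluoxetine pool. Calb1, the calcium-binding protein calbindin, was at -1.35 and -2.12, whereas Prox1, the transcription factor that sets granule cell fate, was at -0.097 and 0.096. Calb1 made up much of the summed signals, with 4552, 1800, 4545 and 1045 in the same order of pools. The median log2 ratio of the 7 markers was -0.61 with ECS and -1.26 with fluoxetine. The study picked Calb1, Tdo2, Dsp and Il1r1 of this list, and their decrease in these samples was known. Their part in the values of Hlf was not tested.

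The promoter of Hlf is shown because a full cAMP response element, the binding site of CREB family factors, lies directly before its annotated start site. The 250 bases before the start site, on the minus strand of GRCm38.p6 at chr11:90390918-90391167 in RefSeq, read as follows, with the element TGACGTCA in capitals.
Hlf: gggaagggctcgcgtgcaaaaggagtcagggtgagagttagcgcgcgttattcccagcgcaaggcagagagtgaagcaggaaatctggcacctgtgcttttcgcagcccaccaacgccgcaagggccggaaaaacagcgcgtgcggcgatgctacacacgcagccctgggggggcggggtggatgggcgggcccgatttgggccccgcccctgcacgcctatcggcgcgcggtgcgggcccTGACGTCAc
The element begins 9 bases before the start site. In the same windows of 300 bases, 250 before and 50 after a start site, 1.79% of 32851 RefSeq promoters hold this word on either strand. The window of Hlf holds neither an E-box (CACGTG) nor a D-box (TTATGTAA or TTACGTAA).

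Nfil3 had the opposite sign to Hlf with ECS and hardly differed from its control with fluoxetine. Its signal was 124 in the sham pool and 405 in the ECS pool, and 159 in the vehicle pool and 180 in the fluoxetine pool. The ECS pool stood apart from the other 3 pools, whose signals lay between 124 and 180. The log2 ratio was 1.80 with ECS, a signal 3.49-fold higher, and 0.059 with fluoxetine. The control spread was 0.21 and sham over vehicle 0.14. Nfil3 held place 43 from the highest of 7935 genes with ECS and place 3252 from the highest with fluoxetine. The log2 ratio with ECS exceeded that with fluoxetine by 1.74, a difference that could not be tested with 1 array per group. A single probe set reports Nfil3, so no other one could be set beside it.

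The profile of Nfil3 was most like those of Tiparp, a PARP enzyme induced by the aryl hydrocarbon receptor, Ier2, an immediate early gene, and Dusp6, a phosphatase that inactivates ERK. The distances were 0.29, 0.33 and 0.52, larger than those between Hlf and its nearest genes. With ECS these genes were at 1.48, 2.23 and 1.38, and with fluoxetine at 0.12, 0.21 and 0.31.

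The promoter of Nfil3 is shown for comparison with that of Hlf. The 250 bases before its start site, on the minus strand at chr13:52981040-52981289 of GRCm38.p6, are 81.6% G and C, against 67.2% for Hlf, and hold none of the words searched.
Nfil3: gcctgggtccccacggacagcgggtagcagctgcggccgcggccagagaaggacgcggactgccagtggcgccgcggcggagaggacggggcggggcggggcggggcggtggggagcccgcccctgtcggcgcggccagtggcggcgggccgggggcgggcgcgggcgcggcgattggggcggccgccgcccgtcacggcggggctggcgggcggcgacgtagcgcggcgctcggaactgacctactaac

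**Figure D2:**
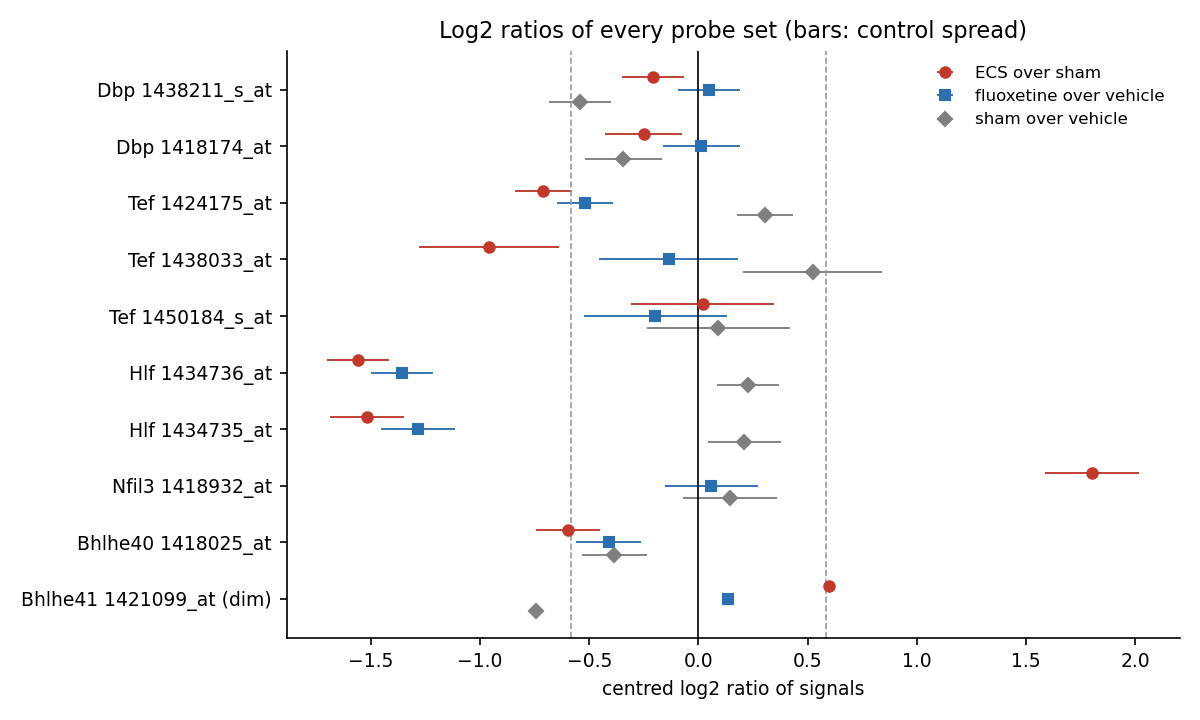
Centred log2 ratios of signals for every member probe set, for ECS over sham (red circles), fluoxetine over vehicle (blue squares) and sham over vehicle (grey diamonds); bars are the control spread of the probe set, dashed lines 1.5-fold, and Bhlhe41 is drawn without a bar because it did not pass the signal limit. Hlf lies at -1.56 and -1.36, Nfil3 at 1.80 with ECS and 0.059 with fluoxetine, and the probe sets of Tef spread from -0.96 to 0.020 with ECS.

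Tef, thyrotroph embryonic factor, was lower with ECS on 2 of its 3 probe sets. On the bright one the signal was 1931 in the sham pool, 1105 in the ECS pool, 2218 in the vehicle pool and 1682 in the fluoxetine pool. The log2 ratios were -0.71 with ECS, 1.64-fold lower, and -0.52 with fluoxetine, 1.43-fold lower and below the size called, with a control spread of 0.13. The sham pool exceeded the vehicle pool by 0.30. A dim probe set with signals of 98.4, 47.4, 97.1 and 96.1 had -0.96 with ECS and -0.14 with fluoxetine. Another dim one, with signals of 67.9, 64.4, 90.4 and 85.8, had 0.020 and -0.20. The dim probe sets have control spreads of 0.32 and 0.33. With ECS, 2 of the 3 probe sets of Tef were thus lower by more than 1.5-fold and the other was not. As the mean of all its probe sets, Tef had -0.55 with ECS, which is under 1.5-fold. With the control arrays exchanged, the bright probe set had -0.41 for ECS over vehicle and -0.83 for fluoxetine over sham. Its nearest genes were Upk2, Pax6, a transcription factor of neural progenitors, and Fam193b, at distances of 0.057, 0.081 and 0.097.

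Dbp, albumin D-box binding protein, differed more between the untreated pools than between treated and control. Signals of its brighter probe set were 613 in the sham pool, 496 in the ECS pool, 1267 in the vehicle pool and 1426 in the fluoxetine pool. ECS over sham was -0.21 and fluoxetine over vehicle 0.049 (control spread 0.14), but sham over vehicle was -0.54, which is 1.46-fold. The other probe set, with signals of 257, 202, 462 and 508, had -0.25, 0.014 and -0.34. The ECS and sham arrays were thus both below the vehicle and fluoxetine arrays for Dbp after scaling. Over all genes, 3.20% differed at least 1.5-fold between sham and vehicle, and none of the 5 measured members did, Dbp being at place 130 from the lowest of 7935. With the control arrays exchanged, Dbp was at -0.76 for ECS over vehicle and 0.59 for fluoxetine over sham, so that its size and call depend on the control array. Dbp had nearest to it Ptprj, a receptor phosphatase, Mtch2, a mitochondrial carrier, and Uxt, a prefoldin-like protein, at 0.11 to 0.12.

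Bhlhe40, unlike the other measured repressor Nfil3, was lower with ECS. Its signal was 540 in the sham pool, 334 in the ECS pool, 1000 in the vehicle pool and 818 in the fluoxetine pool. The log2 ratio was -0.60 with ECS, 1.51-fold lower and just past the size called, and -0.41 with fluoxetine, 1.33-fold lower, with a control spread of 0.15. The sham pool itself was below the vehicle pool by a log2 ratio of -0.39. With the control arrays exchanged, Bhlhe40 was at -0.99 for ECS over vehicle and -0.029 for fluoxetine over sham. With 16 added to each signal, the value with ECS was -0.58 and no longer called. It was also -0.58 and not called under the floor of 50. There the arrays were scaled to equal medians and the median ratio was not subtracted. All signals of Bhlhe40 lie above 50, so this shift came from the scaling and not from the floor. The nearest genes were Il33, a cytokine, Zfp942, a zinc finger gene, and Rpl37, a ribosomal protein, at 0.026, 0.062 and 0.090.

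Bhlhe41 gave signals of 13.2, 18.7, 31.3 and 37.4 in the sham, ECS, vehicle and fluoxetine pools. All 4 lie below 50, where ratios are imprecise. ECS over sham gave 0.60, fluoxetine over vehicle 0.14 and sham over vehicle -0.74 in log2, so the untreated pools differed by more than either treated pool from its control. It was left out of all counts of called genes.

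Activators and repressors were then set against each other. The mean log2 ratio of Dbp, Tef and Hlf minus that of Nfil3, Bhlhe40 and Bhlhe41 does not depend on the scale of an array. It was -1.43 with ECS, from means of -0.83 and 0.60, and -0.54 with fluoxetine, from means of -0.61 and -0.072. Between the untreated pools it was 0.32. Without Bhlhe41 the contrast was -1.43 with ECS, -0.43 with fluoxetine and 0.12 between the untreated pools. Within an array, Hlf fell relative to Nfil3 by a log2 difference of -3.36 with ECS and -1.42 with fluoxetine, against 0.084 between sham and vehicle. With ECS, Hlf and Nfil3 carried most of the contrast. With fluoxetine Nfil3 was near its control, at 0.059, and Hlf was the member farthest from its control, at -1.36. With Hlf and Nfil3 both left out, the contrast was -0.46 with ECS and -0.098 with fluoxetine, next to 0.44 between the untreated pools. This was a choice made after their values were seen. Against Bhlhe40 alone the mean of the PAR bZIP genes differed by -0.23 with ECS and -0.20 with fluoxetine.

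**Figure D3:**
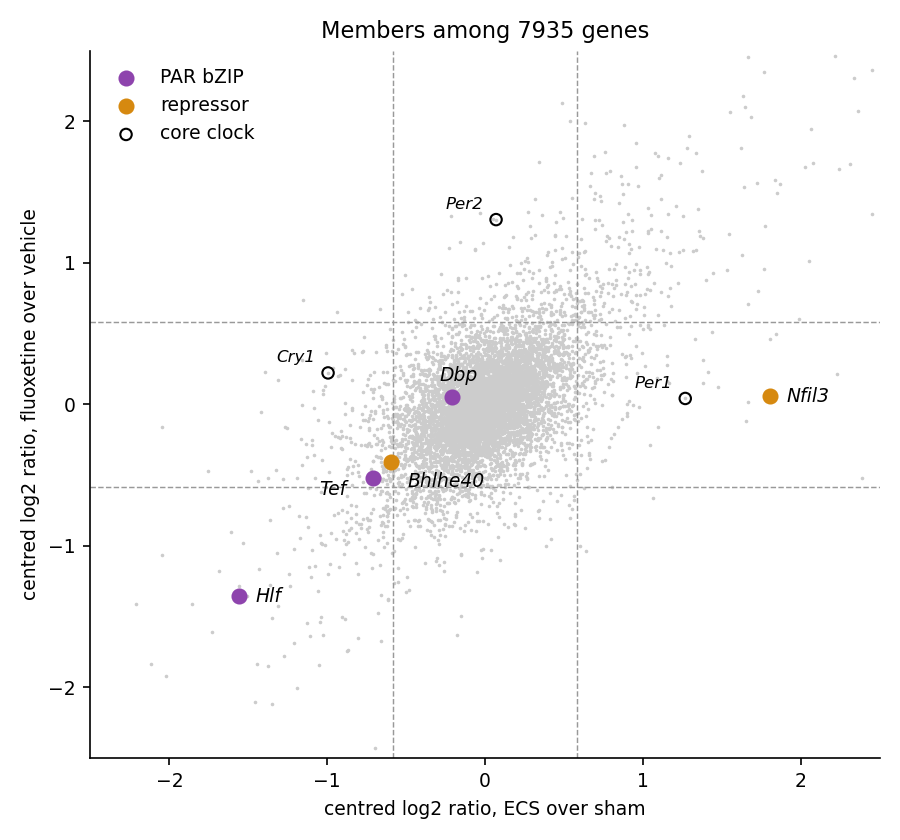
Centred log2 ratio of fluoxetine over vehicle against that of ECS over sham; each grey point is a gene, by its brightest probe set, 34 of 7935 genes lie beyond the axes, dashed lines mark 1.5-fold, filled points are members and open circles 3 clock genes. Hlf lies low on both axes, Nfil3 and Per1 are high on the ECS axis alone, and Per2 is high on the fluoxetine axis alone.

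Core clock genes, from a list of 20 of which 15 were measured, differed in single members. With ECS, 1 was called higher and 2 lower, where 5.15% and 4.37% of all genes were. With fluoxetine 1 was called higher and none lower, where 5.85% and 5.05% of all genes were. The gene called higher with ECS was Per1, those called lower were Cry1 and Per3, and the one called with fluoxetine was Per2. So few calls say little of whether the comparisons share genes. The medians of the 15 genes were -0.18 and 0.032. Per1, a repressor of CLOCK and BMAL1 that is also an activity-induced gene, had signals of 188 in the sham, 424 in the ECS, 277 in the vehicle and 311 in the fluoxetine pool. Its log2 ratios were 1.27 with ECS and 0.041 with fluoxetine, so Per1 was high in the pool in which Nfil3 was high. Per2, its paralogue, had signals of 149, 147, 145 and 390 in the same order. Only the fluoxetine pool was high, with a log2 ratio of 1.31 against 0.070 with ECS, although the sham pool exceeded the vehicle pool by 0.55. With the control arrays exchanged, Per2 was at 0.61 for ECS over vehicle and 0.76 for fluoxetine over sham. The dim probe set of Per2 had 0.82 with fluoxetine and 0.34 with ECS.

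Cry1, a cryptochrome repressor, had signals of 150, 70.3, 200 and 254, and was called lower with ECS, at -0.99, but not with fluoxetine, at 0.22. Per3 was called lower with ECS, at -0.61, with -0.16 for fluoxetine and 0.31 for sham over vehicle. Arntl, which encodes BMAL1, had -0.24 and -0.53. The orphan receptor gene Rora had -0.48 and -0.53, and -0.21 and -0.28 on a dimmer probe set above the signal limit. Nr1d2, which encodes the repressor REV-ERB beta, had -0.41 and -0.26. Nr1d1, its relative REV-ERB alpha, had signals of 32.0, 36.8, 69.7 and 36.0 and did not pass the signal limit.

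**Figure D4:**
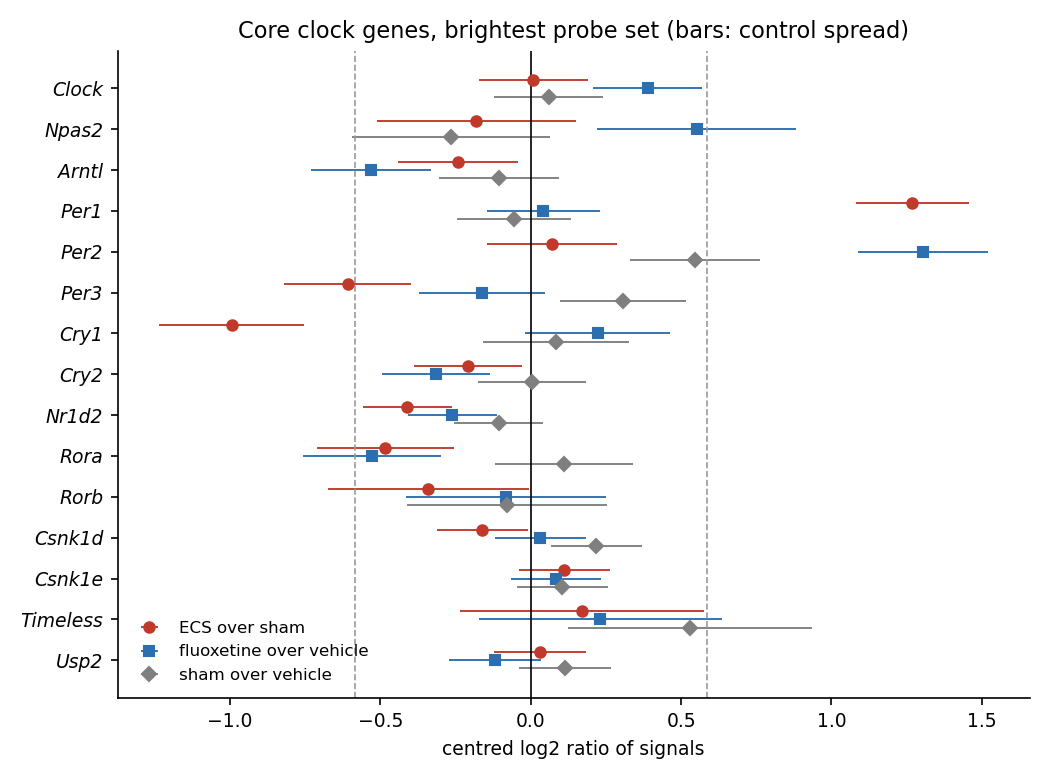
Centred log2 ratios of the 15 measured core clock genes, brightest probe set, for ECS over sham (red circles), fluoxetine over vehicle (blue squares) and sham over vehicle (grey diamonds), with the control spread as bars and 1.5-fold as dashed lines. Per1 stands out with ECS at 1.27, Per2 with fluoxetine at 1.31 and Cry1 with ECS at -0.99.

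The promoters of the members, of clock genes and of Pdxk were searched for the E-box and the D-box. Of the 6 members, 5 matched the RefSeq promoter table of GRCm38.p6, and Bhlhe40 did not. Both strands of each window were searched, and no match overlapped another. The E-box stood in both promoters of Tef, at chr15:81802526-81802571 and chr15:81811256-81811301 on the plus strand, and in that of Bhlhe41, at chr6:145865548-145865593 on the minus strand. These stretches are shown because they are the E-boxes of the members, in capitals with up to 20 bases on either side.
Tef (1): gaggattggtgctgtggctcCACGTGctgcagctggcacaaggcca
Tef (2): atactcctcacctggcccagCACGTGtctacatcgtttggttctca
Bhlhe41: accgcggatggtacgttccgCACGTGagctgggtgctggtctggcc
This word is in 7.15% of all promoter windows. The window of Dbp, at chr7:45704997-45705296, holds no match, which says nothing of its other regulatory regions. The E-box also stood before Per1, Cry1 and Pdxk.

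The D-box is the element of the PAR bZIP factors and Nfil3, and was searched for as the exact words TTATGTAA and TTACGTAA. A match stood before Per3 at 2 places, 205 and 158 bases before the start site. The other windows searched, those of the matched members, Per1, Cry1, Nr1d1, Nr1d2, Arntl and Pdxk, held neither word. Variants of these words were not searched, so this does not show that the element is absent there. Both sites of Per3 are shown because they are the only matches to these words in these windows. They lie on the minus strand at chr4:151044843-151044890 and chr4:151044796-151044843.
Per3 (1): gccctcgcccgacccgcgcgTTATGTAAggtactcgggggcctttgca
Per3 (2): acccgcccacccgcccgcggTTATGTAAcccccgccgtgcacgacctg
Of all windows, 0.938% hold TTATGTAA and 0.119% TTACGTAA. Per3 had signals of 237 in the sham, 145 in the ECS, 272 in the vehicle and 265 in the fluoxetine pool. With arrays scaled to a common median these are 283, 187, 229 and 204, so that the ECS pool lay little below the fluoxetine pool. ECS over vehicle was -0.31 and not called. Its other 2 probe sets had signals of 5.7 to 33.9 and log2 ratios with ECS of -1.45 and 0.45. Whether these elements bear on the values was not tested.

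**Figure D5:**
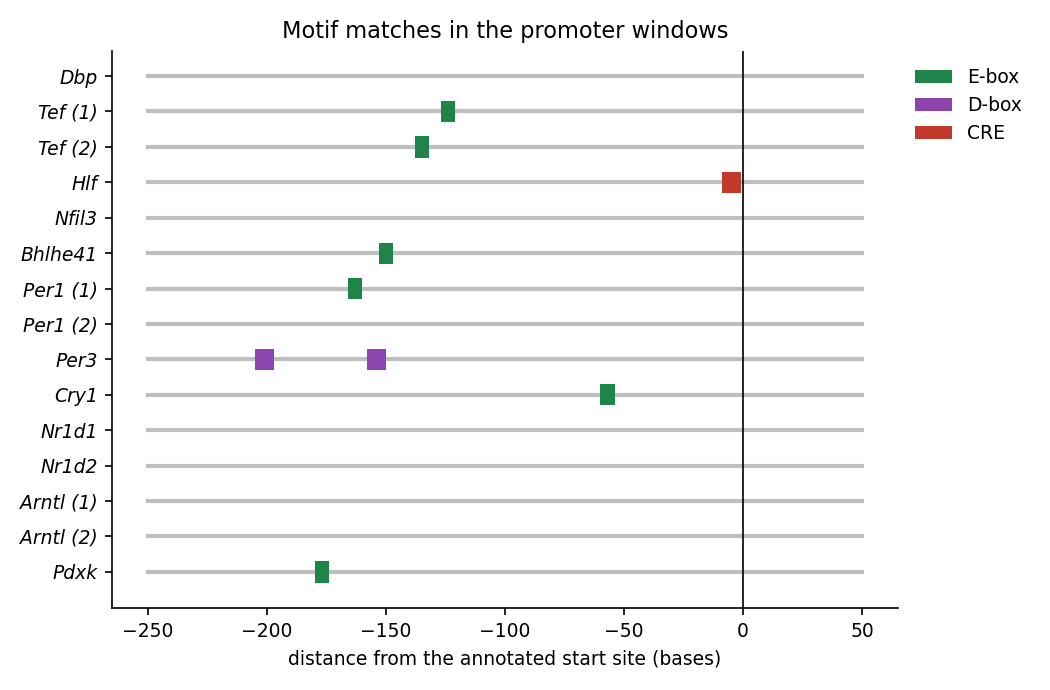
Matches to the E-box, CRE and D-box in windows from 250 bases before to 50 bases after the annotated start site, for members, clock genes and Pdxk; each grey line is 1 promoter and each coloured bar 1 match. Hlf has a CRE at 9 bases before its start site, Per3 has both matches to the D-box words, and Dbp and Nfil3 have no match.

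Clock genes with a reported D-box, a list of 8 with 7 measured, lie within the core clock list. With ECS 1 was called higher and 2 lower, and with fluoxetine 1 higher and none lower. Over all genes, 5.15% were called higher and 4.37% lower with ECS, and 5.85% and 5.05% with fluoxetine. The medians of these clock genes were -0.41 and -0.082. The target genes of PAR bZIP factors known from liver and brain were a list of 10, of which 7 are on the array and 2 passed the signal limit, and neither was called. Pdxk, the pyridoxal kinase gene, had signals of 897 in the sham, 707 in the ECS, 1139 in the vehicle and 942 in the fluoxetine pool. It was thus slightly lower in both treated pools, by -0.25 and -0.40 on the log2 scale, next to a control spread of 0.14. A dimmer probe set of Pdxk above the limit had 0.24 with ECS and -0.28 with fluoxetine. Alas1, the rate-limiting enzyme of heme synthesis, had 0.015 and -0.049. The remaining targets on the array, cytochromes P450 of the liver, Nr1i3 and Tshb, had signals of at most 21.0 on their brightest probe sets.

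Of 26 measured markers of other cell types, 3 were called higher and 1 lower with ECS, and 6 higher and 2 lower with fluoxetine. These are 15.4% and 30.8% of the markers, where 9.53% and 10.9% of all genes were called in either direction. Of the astrocyte, microglia, oligodendrocyte and endothelial genes, 16 measured in all, 1 was called higher with ECS (Gfap, at 2.34), 3 were called higher with fluoxetine (Gfap at 2.30, Aqp4 at 0.74 and Vwf at 1.31) and none lower. Vwf had dim signals of 46.4 in the sham, 44.9 in the ECS, 53.7 in the vehicle and 145 in the fluoxetine pool. The summed scaled signals of the 5 astrocyte markers were 7751 in the sham, 8208 in the ECS, 8352 in the vehicle and 9648 in the fluoxetine pool, and those of the 5 microglia markers 3443, 3356, 3258 and 3892. Those of 3 oligodendrocyte markers were 7571, 8214, 7236 and 7216, and those of 3 endothelial markers 518, 588, 473 and 514. Of 4 pyramidal cell markers, Bok was called higher, at 0.92 and 0.73, and Pou3f1 lower, at -1.13 and -1.55. Pou3f1 had signals of 44.9 in the sham, 19.2 in the ECS, 104 in the vehicle and 38.9 in the fluoxetine pool. Its ratios thus rest on signals below 50, and sham over vehicle was itself -0.71. Of 5 interneuron markers, Gad2 was called higher with ECS, at 0.83, and Gad2 and Vip with fluoxetine, at 0.85 and 0.81. The choroid plexus gene Ttr was at 15.2 to 18.6 on all arrays, and Kl was called lower with fluoxetine, at -0.89. Their part in the members' values was not tested.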

How the data were processed

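RNA of 4 dentate gyrus pools, 1 array per group, was measured on the Affymetrix mouse genome 430A 2.0 array after amplification with the 3′IVT Express kit. What was deposited are MAS5 signals, a linear intensity per probe set, whose medians differed between the arrays. Version and scaling target are not given in the sources used here.

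Of 22690 probe sets, 64 controls were left out. Names came from the platform annotation (20380 probe sets with 1 gene, 691 with several and 1555 with none), and 0 of 20364 symbols differed from those of the same gene identifiers in the RefSeq table of GRCm38.p6. The filter of the study's methods, an average signal of 50 across arrays, was applied, log2 ratios were centred on their median over the 13422 kept, and the brightest probe set stood for a gene. Zeros were replaced with 0.1, although none of the kept probe sets held one. A change was called at 1.5-fold. Without replicates no test was run, and 1 array per group limits the precision.

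The members and the 13 gene lists were chosen with earlier results of these data known. Named were all members, up to 4 measured genes of a list with the largest mean change, the 3 PER genes, Nr1d1, Nr1d2, Arntl and Pdxk, and the 3 genes nearest to each measured member. Prox1 and Ttr were added after their values were seen. Alternatives were other scalings, filters, sizes and a floor or pseudocount, the mean over probe sets and exchanged control arrays; leaving Bhlhe41 out of the contrast was chosen after seeing the data. Of these steps, only the scaling and the log2 ratios were tested on simulated data with planted changes. Python 3.11.15, numpy 2.4.6, pandas 2.3.3 and matplotlib 3.10.9 were used.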

Additional observations from a re-analysis of the deposited data

Results flagged for a closer look

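Dbp had log2 ratios of opposite sign in the comparisons, -0.21 for ECS over sham and 0.049 for fluoxetine over vehicle. Both are under 1.5-fold, the second is below the control spread of 0.14, and the difference between the comparisons was not tested.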

How the results depend on the processing

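All 5 measured members kept their sign in both comparisons under all alternatives but 1: with control arrays exchanged, Nfil3 with fluoxetine was at -0.088, within its control spread. Of the values, 70 member ratios, 15 contrasts and 86 counts stayed close to the reported value, and 10, 3 and 34 moved. Close meant within the control spread for a ratio, within the combined spread of the members for a contrast, and within 1.5-fold for a count. Among the close counts, 2 instead of 3 members were lower with ECS under some alternatives. These were the floor of 50, the pseudocount of 16 and the mean over probe sets. Hlf lay between -1.65 and -1.53 with ECS and between -1.39 and -1.24 with fluoxetine, and Nfil3 with ECS between 1.68 and 1.82, without the exchange.

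With the control arrays exchanged (ECS over vehicle, fluoxetine over sham), the ECS values were -0.76 for Dbp, -0.41 for Tef, -1.33 for Hlf, -0.99 for Bhlhe40 and -1.10 for the contrast, with 3 clock genes higher and 1 lower. Those of fluoxetine were 0.59 for Dbp, -0.83 for Tef, -1.59 for Hlf, -0.029 for Bhlhe40 and -0.86 for the contrast, with 1 member higher, 2 members lower, 2 clock genes higher and 1 lower. Dbp thus passed 1.5-fold in opposite directions, and Tef passed it with fluoxetine but not with ECS. Calls also rose over all genes. With the exchange 546 genes were higher and 388 lower with ECS, against 409 and 347 without it. With fluoxetine these were 512 and 510, against 464 and 401.

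As the mean over probe sets, Tef was at -0.55 and -0.28. With a floor of 50 the ECS contrast was -1.22. A pseudocount of 16 left 1 clock gene lower with ECS, and over all genes 332 higher and 247 lower. In signals as deposited, 2 clock genes were higher and 259 genes lower with fluoxetine. Without a filter, 2 members were higher with ECS, as Bhlhe41 then counts, 1727 genes were higher and 1452 lower with ECS, 1614 higher and 1682 lower with fluoxetine, and 1 clock gene lower with fluoxetine. At a mean signal of 200, 1 clock gene was lower with ECS, 190 genes higher and 150 lower with ECS, and 218 and 184 with fluoxetine; fewer genes were tested.

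At 1.2-fold, 5 clock genes were lower with ECS, 3 members lower, 3 clock genes higher and 3 lower with fluoxetine, 1395 genes higher and 1368 lower with ECS, and 1469 and 1466 with fluoxetine. At 2-fold, 1 member and 0 clock genes were lower with ECS, with 137 genes higher and 87 lower, and 171 and 90 with fluoxetine. Other causes were not tested. No paired analysis was possible because each group is 1 array.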

Other observations

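Other bZIP and helix-loop-helix genes, from lists of the relatives of the members, included 2 called with ECS and 3 called with fluoxetine, Hes5 in both. Over all genes, 9.53% were called in either direction with ECS and 10.9% with fluoxetine. Of 5 measured C/EBP family genes, which belong to the wider bZIP class, none was called with ECS and 1 was called higher with fluoxetine. That was Cebpb, a C/EBP activator of inflammatory and metabolic genes, with signals of 1036 in the sham, 1060 in the ECS, 1736 in the vehicle and 3385 in the fluoxetine pool. ECS over sham was 0.13 and fluoxetine over vehicle 0.84 (control spread 0.13), and only the fluoxetine pool was high. Cebpd had -0.24 and -0.47.

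Of 8 measured Hes, Hey and Id genes, 2 were called lower with ECS, and 1 was called higher and 1 lower with fluoxetine. Hes5, a Notch target of neural stem cells, had signals of 87.1 in the sham, 50.2 in the ECS, 95.2 in the vehicle and 19.2 in the fluoxetine pool, so that its log2 ratio of -2.43 with fluoxetine rests on a signal below 50. With ECS it was -0.70. Hes6 had -0.65 and -0.53, and Id3, an inhibitor of E-protein DNA binding, 0.41 and 0.63. Without replicates none of these differences was tested.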
